A study of Mus musculus with 48 samples.

Results

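The genes described here are 9 members of the Notch signalling pathway of the mouse. They are the ligand genes Dll1, Dll4, Jag1 and Jag2, the receptor genes Notch1, Notch2 and Notch4, the DNA-binding partner gene Rbpj and the target gene Hes1, which makes 9 of the 55487 genes in the deposited tables. Dll1 and Dll4 were picked because their levels differ between cisplatin and control libraries in these same data, and the other 7 were added as their partners in the pathway. For Dll1 and Dll4 the cisplatin values are therefore a description and carry no test, and none is printed for the comparisons among PBS libraries either, because those libraries are the controls of the contrasts that picked them. All 9 genes passed the limit on low counts in the macrophage table and in the dendritic cell table taken as a whole, but Dll4 did not pass in the subcapsular macrophages alone, and Dll1 and Hes1 did not pass in the migratory dendritic cells alone.

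The study profiled polyadenylated RNA from myeloid cells sorted out of digested lymph nodes of tumour-bearing, genetically wild type mice given cisplatin, a platinum drug that crosslinks DNA, or PBS, a salt solution without drug. The 48 libraries fall into 16 groups of 3. Medullary sinus macrophages (MSM), subcapsular sinus macrophages (SSM), migratory dendritic cells (mDC) and resident dendritic cells (rDC) were each taken from the tumour-draining lymph node (TDLN) and from another lymph node (LN), and from each node after cisplatin (CIS) and after PBS. The tumour, the dose, the time of sampling, the age of the mice and the site drained by the LN are not given in the labels used here, and nothing in the labels ties a library to its own mouse. The p-values therefore measure the spread between libraries, which may be technical. In the dendritic cell data the columns read as TDLN are headed Tumor and those read as LN are headed WT. What these headers say about the mice is not explained in the labels. In comparisons of the TDLN with the LN, node site, tumour drainage and any such difference between mice cannot be told apart.

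Notch signalling works by contact between neighbouring cells. A ligand of the Delta-like or Jagged family on one cell binds a Notch receptor on the next, and the receptor is cut first by an ADAM protease and then by the gamma-secretase complex. The freed intracellular part joins the DNA-binding protein RBPJ and coactivators of the Mastermind family to switch on targets such as the repressor gene Hes1. Fringe glycosyltransferases tune which ligand a receptor answers to. In lymphoid organs NOTCH2 is known for its role in the development of dendritic cell subsets and marginal zone B cells, and Delta-like and Jagged ligands on antigen-presenting cells are known to shape the differentiation of helper T cells.

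The stretches of 250 bases just upstream of the transcription starts of 3 ligand genes are shown because these ligands separate the groups: Dll4 and Dll1 are the genes picked for their cisplatin values, and Jag1 is the ligand that sets migratory dendritic cells apart from resident ones. The sequences are RefSeq's on GRCm38.p6, read 5′ to 3′ on the strand of the gene, and 8 of the 9 genes matched the promoter table (Hes1 did not). Capitals mark an N-box, the letters CACNAG that HES repressors are known to bind.
Dll4, chr2:119325534-119325783, plus strand: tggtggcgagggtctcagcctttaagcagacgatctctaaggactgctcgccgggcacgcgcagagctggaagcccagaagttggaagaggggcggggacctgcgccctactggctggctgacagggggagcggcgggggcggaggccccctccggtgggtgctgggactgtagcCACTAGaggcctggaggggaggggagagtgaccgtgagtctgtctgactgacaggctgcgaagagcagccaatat
Dll1, chr17:15376933-15377182, minus strand: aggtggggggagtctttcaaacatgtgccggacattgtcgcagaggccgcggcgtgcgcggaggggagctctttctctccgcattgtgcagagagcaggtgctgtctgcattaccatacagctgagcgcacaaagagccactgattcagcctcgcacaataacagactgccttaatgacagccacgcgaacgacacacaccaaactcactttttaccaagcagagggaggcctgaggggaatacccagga
Jag1, chr2:137116521-137116770, minus strand: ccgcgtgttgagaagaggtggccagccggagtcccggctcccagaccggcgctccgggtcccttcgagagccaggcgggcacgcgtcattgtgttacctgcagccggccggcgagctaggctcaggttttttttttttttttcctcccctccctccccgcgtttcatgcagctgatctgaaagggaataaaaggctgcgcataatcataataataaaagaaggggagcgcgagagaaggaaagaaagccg
The N-box of Dll4 begins 75 bases before its start. Of the 10 starts that the table gives for these genes, 3 had an N-box on either strand, those of Notch1, Dll4 and Notch2, against 36.7% of all 32536 promoter windows of the same length. The RBPJ letters GTGGGAA were in none of the 10 windows and in 5.43% of all windows, and the E-box CACGTG was likewise in none of the 10 and in 6.04% of all windows. A match or its absence describes the letters of these windows only.

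On GRCm38 the genes lie at the following places in the annotation, all as protein-coding genes. Dll1 (chr17:15367354-15376872, minus strand) and Notch4 (chr17:34564268-34588503, plus strand) share chromosome 17. Dll4 (chr2:119325784-119335962, plus strand), Jag1 (chr2:137081456-137116644, minus strand) and Notch1 (chr2:26457903-26516663, minus strand) share chromosome 2. Jag2 lies at chr12:112907819-112929776 on the minus strand, Notch2 at chr3:98013527-98150361 on the plus strand, Hes1 at chr16:30064384-30067796 on the plus strand and Rbpj at chr5:53466152-53657362 on the plus strand.

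The 24 macrophage libraries held 6456456 to 10434248 counts each. Of the dendritic cell libraries, 18 held 2002713 to 3842097 counts. The 6 libraries of 2 PBS groups, mDC of the TDLN and rDC of the LN, held 10733509 to 15481059 counts, so that depth differed between the groups in every comparison that uses them. Among the macrophage libraries, 4 went against their labels: MSM TDLN CIS replicate 1, MSM LN PBS replicate 2, SSM TDLN CIS replicate 3 and SSM LN PBS replicate 2 correlated with the other libraries of their own group at r of 0.751 at most. With libraries of the other macrophage type from the same node and treatment their r was at least 0.990. The lowest such value within a group was 0.950 for all other libraries. They are called crossed libraries here and kept under their labels. The main comparisons of members that hold one are also given without it. Summed levels of 12 macrophage marker genes were 1753 to 24490 counts per 1000000 (CPM) in macrophage libraries and 686 to 3139 CPM in dendritic cell libraries. The 8 markers of migratory dendritic cells summed to 30624 to 37741 CPM in mDC against 984 to 1614 CPM in rDC. The MSM LN CIS libraries had the lowest macrophage marker sums, 1753 to 1832 CPM, against 13277 to 15738 CPM in MSM LN PBS. Because these are bulk libraries, fewer cells of a type and less RNA per cell cannot be told apart.

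Dll1, a Delta-like ligand, was higher in every cisplatin than in every PBS library of the same node in both macrophage types. It stood in MSM of the TDLN at 10.6, 87.4 and 82.3 CPM in CIS libraries, the first value being from the crossed library, against 7.72, 5.70 and 6.03 CPM in PBS libraries. All CIS libraries lay above all PBS libraries, and the ratio of the group means was 9.27. Without the crossed library the CIS mean was 84.8 CPM and the ratio 13.1.

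Dll1 in MSM of the LN stood at 36.9, 34.5 and 38.1 CPM in CIS libraries against 4.96, 10.6 and 2.92 CPM in PBS libraries. The groups did not overlap, and the ratio of the means was 5.93, or 9.26 without the crossed PBS library. The log2 fold change of Dll1 with cisplatin, which is the fitted difference between the groups on the log2 scale, was 3.23 (SE 0.69) in the TDLN and 2.56 (SE 0.68) in the LN.

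Dll1 in SSM of the TDLN was at 10.6, 9.63 and 93.2 CPM in CIS libraries, with the last one crossed, and at 0 counts in all 3 PBS libraries. Set against a floor of 3 counts per PBS library this is at least 107.6-fold, and at least 28.7-fold without the crossed library, so that 1 library carries most of the size. The SSM libraries of the LN had 15.9, 15.7 and 16.6 CPM with CIS and 8.85, 4.57 and 9.14 CPM with PBS, a ratio of 2.14, or 1.79 without the crossed library. Every CIS library again lay above every PBS library.

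Marker lists moved with Dll1 as well. In MSM of the TDLN the 10 mast cell and basophil markers summed to 2032 to 3858 CPM in CIS libraries, with none at 0, against 270 to 289 CPM in PBS libraries, where 6 were at 0. In the same libraries the 8 migratory dendritic cell markers summed to 2093 to 2365 CPM with CIS against 918 to 1014 CPM with PBS, and the 12 macrophage markers to 8068 to 14258 CPM with CIS against 23464 to 23898 CPM with PBS. The mast cell and basophil sum in SSM of the TDLN was 2018 to 3897 CPM with CIS against 169 to 175 CPM with PBS. In MSM of the LN it was 2147 to 2193 CPM with CIS against 668 to 1278 CPM with PBS, and in SSM of the LN 78.5 to 80.9 CPM with CIS against 638 to 1249 CPM with PBS, the opposite direction to Dll1. B cell markers in SSM of the TDLN summed to 491 to 5332 CPM with CIS, or 5222 to 5332 CPM without the crossed library, against 1109 to 1140 CPM with PBS. The part of these lists in the levels of Dll1 was not tested.

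Dll4, the other Delta-like ligand of the set and one best known from blood vessel sprouting and from T cell development in the thymus, was read in 1 macrophage group beyond a trace. It stood at 27.5, 22.3 and 28.2 CPM in MSM LN CIS libraries, against 0 counts in all 3 MSM LN PBS libraries. It was at least 73.2-fold higher against the floor of 3 counts per library and at least 69.9-fold without the crossed PBS library. In all other macrophage libraries Dll4 lay between 0 and 0.798 CPM. Within MSM of the TDLN it was at 0.798, 0 and 0 CPM in CIS libraries and at 0 counts in PBS libraries.

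Several marker lists moved with Dll4 in MSM of the LN. Beside the macrophage sum given above, 7 natural killer cell markers summed to 257 to 277 CPM in CIS libraries (1 of the 7 at 0) against 12.2 to 37.9 CPM in PBS libraries. The 10 B cell markers summed to 5284 to 5427 CPM in CIS libraries against 311 to 4369 CPM in PBS libraries. The 8 migratory dendritic cell markers summed to 4816 to 5062 CPM in CIS libraries against 720 to 1879 CPM in PBS libraries. The 8 neutrophil markers, 4 of them at 0 with CIS, summed to 13.7 to 16.5 CPM in CIS libraries against 172 to 5997 CPM in PBS libraries. Without the crossed PBS library the PBS sums were 5798 to 5997 CPM for neutrophil and 311 to 320 CPM for B cell markers. The 12 blood endothelial markers, 5 of which (Tek, Egfl7, Cldn5, Robo4 and Sox17) were at 0 in the CIS libraries, summed to 252 to 264 CPM in CIS against 96.6 to 209 CPM in PBS libraries. Their part in the levels of Dll4 and of the other members in these libraries was not tested.

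In mDC of the TDLN the cisplatin and PBS libraries lay far apart for Dll4. It stood at 68.3, 54.6 and 63.4 CPM in CIS libraries against 7.71, 7.35 and 7.94 CPM in PBS libraries. The groups did not overlap, with a ratio of means of 8.09 and a fitted log2 fold change of 3.15 (SE 0.13). In mDC of the LN the values were 17.7, 19.8 and 13.9 CPM in CIS libraries and 16.7, 16.6 and 18.0 CPM in PBS libraries, which overlapped, with a log2 fold change of -0.02 (SE 0.18). The CIS libraries of mDC of the TDLN held 2858543 to 2952751 counts and the PBS libraries 11424067 to 15481059. The 12 blood endothelial markers summed to 115 to 130 CPM in mDC TDLN CIS against 72.7 to 82.1 CPM in mDC TDLN PBS. The part of either in these values was not tested.

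In rDC, Dll4 was already high. It stood at 120, 162 and 126 CPM in TDLN CIS libraries and 147, 135 and 130 CPM in TDLN PBS libraries, which overlapped. In the LN it stood at 108, 98.7 and 75.0 CPM in CIS libraries against 73.1, 58.8 and 69.6 CPM in PBS libraries, a ratio of 1.40 with no overlap. Dll1 was low throughout the dendritic cells, at 0.373 to 4.99 CPM in mDC and 7.04 to 14.6 CPM in rDC. In mDC of the LN it was at 0.898, 0.696 and 0.448 CPM in CIS libraries against 2.39, 4.99 and 1.80 CPM in PBS libraries, without overlap.

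**Figure D1:**
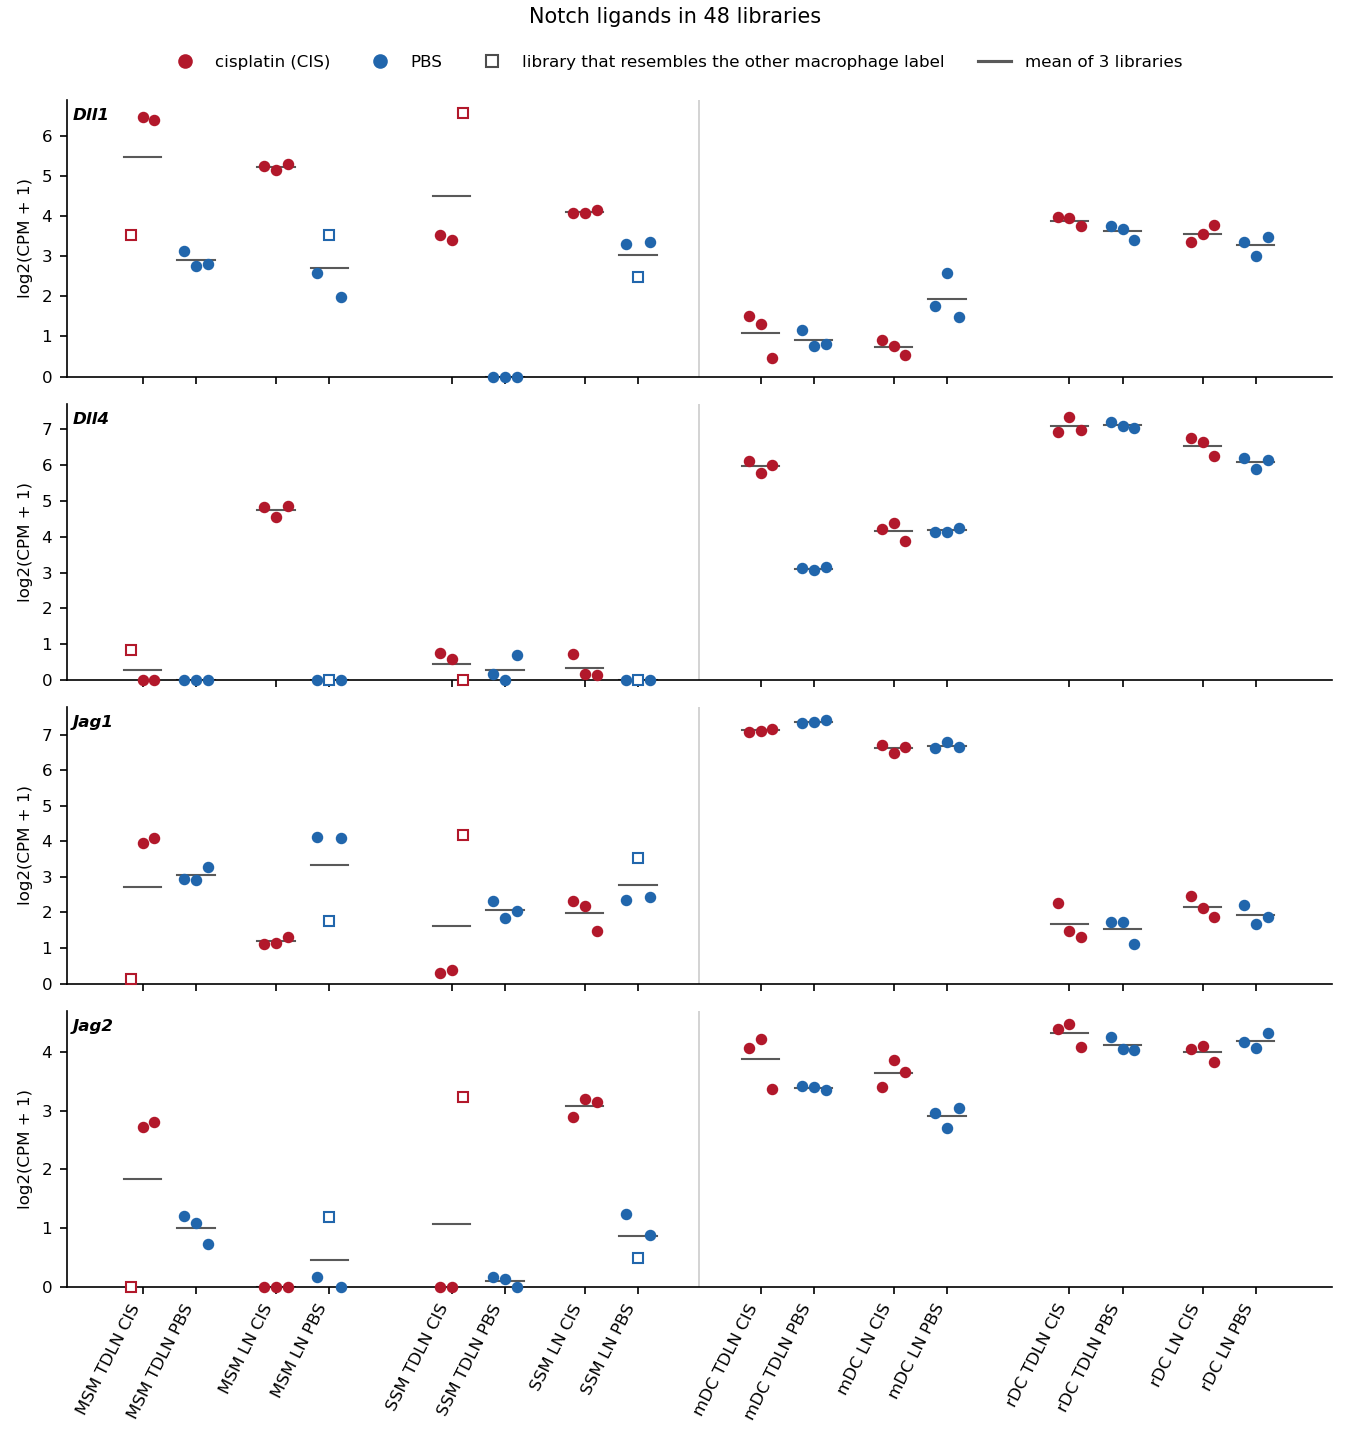
Levels of the 4 ligand genes, Dll1, Dll4, Jag1 and Jag2, in every library, as log2(CPM + 1) on the vertical axis, with 1 panel per gene and the 16 groups along the horizontal axis, cisplatin in red to the left of PBS in blue. Points are libraries, open squares are the 4 crossed libraries and bars are means of 3 libraries on the log scale; Dll4 is at or near 0 in all macrophage groups but MSM LN CIS, and in mDC of the TDLN all CIS points lie above all PBS points.

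Between the nodes of mice given PBS no cisplatin library was compared, though cisplatin libraries shared the scaling and the estimate of spread. There the TDLN and LN libraries of Dll4 did not overlap in either dendritic cell type. In mDC it was lower in the TDLN, at 7.71, 7.35 and 7.94 CPM in TDLN libraries against 16.7, 16.6 and 18.0 CPM in LN libraries (log2 fold change -1.33, SE 0.17). In rDC it was higher in the TDLN, at 147, 135 and 130 CPM against 73.1, 58.8 and 69.6 CPM in LN libraries (log2 fold change 1.10, SE 0.14). The directions were opposite, and the difference between the cell types was not tested. These PBS libraries are also the controls of the cisplatin contrasts from which Dll4 was picked, and TDLN and LN depth differed in both cell types.

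Dll1 also lay apart between the nodes with PBS in SSM, in libraries that are likewise controls of its picking contrasts. It was at 0 counts in all 3 TDLN libraries and at 8.85, 4.57 and 9.14 CPM in LN libraries, at least 21.4-fold lower in the TDLN, and at least 25.6-fold lower without the crossed LN library. In MSM, Dll1 had a log2 fold change of 0.05 (SE 0.67) with all libraries, and of 0.69 (SE 0.22) without the crossed library. In rDC it was 0.43 (SE 0.19).

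The Jagged ligands split the dendritic cells. Jag1, a ligand with roles in bile duct and vessel formation, stood at 134, 137 and 143 CPM in mDC TDLN CIS libraries and at 160, 164 and 170 CPM in mDC TDLN PBS libraries, while no rDC library exceeded 4.49 CPM. With PBS it was higher in mDC of the TDLN than of the LN (98.0, 109 and 100 CPM in the LN; log2 fold change 0.52, SE 0.07, adjusted p = 8.587e-06 by edgeR's quasi-likelihood test). Its cisplatin effect in mDC did not pass the test in the TDLN (log2 fold change -0.11, SE 0.06, adjusted p = 0.1938) or in the LN (-0.10, SE 0.08, adjusted p = 0.4897). When no genes were filtered out, the fit gave -0.39 in the TDLN (adjusted p = 1.252e-05). The cause of that change was not tested.

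Jag2, the second Jagged ligand, was read at 15.7, 17.6 and 9.32 CPM in mDC TDLN CIS libraries against 9.70, 9.56 and 9.17 CPM in PBS libraries. The lowest CIS value lay within the PBS range. The log2 fold change of 0.72 (SE 0.20, adjusted p = 0.009178) passed the test. Because depth differed, the deep libraries were also thinned at random to 3000000 counts each, in 5 draws of which 4 were added after a second draw had changed calls near the threshold. Jag2 passed in 4 of the 5 draws (adjusted p 0.01798 to 0.07731). It was lost without CIS replicate 1 (0.64, adjusted p = 0.05916), without CIS replicate 2 (0.53, adjusted p = 0.104) and without the low-count filter (0.45, adjusted p = 0.1142). In rDC, Jag2 ranged from 13.2 to 21.3 CPM and passed no cisplatin test.

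In macrophages Jag1 and Jag2 were low, and their values turned on the crossed libraries. Jag1 stood at 1.14, 1.23 and 1.47 CPM in MSM LN CIS libraries against 16.5, 2.36 and 16.1 CPM in PBS libraries, with the low PBS value from the crossed library. The groups did not overlap. It fell by 3.18 on the log2 scale (SE 1.18, adjusted p = 0.04948), and by 3.65 (SE 0.24, adjusted p = 1.062e-10) without the crossed library. Leaving out any 1 of the 3 CIS libraries or of PBS replicates 1 and 3 took the adjusted p of Jag1 to between 0.1105 and 0.1296.

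Jag1 reversed in SSM of the TDLN. It stood at 0.234, 0.301 and 17.2 CPM in CIS libraries, the last one crossed, against 4.01, 2.56 and 3.09 CPM in PBS libraries. The log2 fold change was 0.90 (SE 1.20, adjusted p = 0.6173) with all libraries and -3.50 (SE 0.53, adjusted p = 1.821e-05) without the crossed library. Jag1 in MSM of the TDLN had 0.0998, 14.5 and 16.1 CPM in CIS libraries, the first crossed, against 6.65, 6.57 and 8.71 CPM in PBS libraries. The fit gave log2 fold changes of 0.50 (SE 1.05, adjusted p = 0.7519) and, without the crossed library, 1.09 (SE 0.18, adjusted p = 3.557e-05).

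Jag2 also turned on the crossed libraries. It stood in MSM of the TDLN at 0, 5.60 and 5.99 CPM in CIS libraries against 1.31, 1.12 and 0.670 CPM in PBS libraries. It passed the test only without the crossed library (log2 fold change 2.49, SE 0.39, adjusted p = 3.132e-05, against 1.91, SE 1.47, adjusted p = 0.3475, with it). Jag2 in SSM of the LN stood at 6.44, 8.16 and 7.81 CPM in CIS libraries against 1.36, 0.403 and 0.840 CPM in PBS libraries, with no overlap. It passed without the crossed library (2.76, SE 0.35, adjusted p = 5.251e-06) but not with it (3.05, SE 1.47, adjusted p = 0.1982). All 3 CIS libraries of MSM of the LN had 0 counts of Jag2.

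Among the receptors, Notch4, best known from blood vessel endothelium, varied widely in macrophages. It stood in MSM of the TDLN at 1.90, 0 and 0.249 CPM in CIS libraries against 13.1, 17.2 and 18.9 CPM in PBS libraries. It fell by 4.43 on the log2 scale (SE 1.04, adjusted p = 0.008008), and by 6.89 (SE 0.53, adjusted p = 1.987e-09) without the crossed library. The direction was opposite in MSM of the LN, at 5.01, 4.29 and 4.89 CPM in CIS libraries against 0, 0.642 and 0.381 CPM in PBS libraries. This was a rise of 3.71 (SE 1.08, adjusted p = 0.01869). Its adjusted p was 0.05378 without PBS replicate 3 and 1.362e-06 without the crossed library.

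The opposite directions of Notch4 differed by the test of the difference itself. The effect in the TDLN minus that in the LN was -8.14 (SE 1.5, adjusted p = 0.001688), and -11.44 (SE 0.79, adjusted p = 3.355e-10) without the crossed libraries. With PBS, Notch4 was higher in the TDLN than in the LN in MSM (5.48, SE 1.13, adjusted p = 0.003895, and 6.33 without the crossed library) and in SSM, where TDLN libraries had 3.26, 6.56 and 3.70 CPM and LN libraries 0.0972, 0 and 0 CPM (6.51, SE 1.34, adjusted p = 0.009283, and 6.18 without the crossed library). The 12 blood endothelial markers in MSM of the TDLN summed to 91.6 to 251 CPM in CIS libraries, where Emcn was at 0, and to 47.6 to 50.7 CPM in PBS libraries, where Cdh5, Kdr, Tek, Tie1, Egfl7, Robo4 and Sox17 were at 0. Neutrophil markers, 8 in all, summed to 824 to 7755 CPM in MSM TDLN CIS against 10738 to 11074 CPM in MSM TDLN PBS. Without the crossed CIS library the CIS sums were 91.6 to 99.5 CPM for the endothelial and 7532 to 7755 CPM for the neutrophil markers. Their part in the values of Notch4 was not tested.

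Notch2, the receptor with known roles in dendritic cell subsets, was read evenly across replicates. It stood in MSM of the LN at 37.8, 33.9 and 34.3 CPM in CIS libraries against 82.4, 62.4 and 75.5 CPM in PBS libraries, with no overlap, and fell by 1.06 (SE 0.14, adjusted p = 0.0002622), and by 1.17 without the crossed library. Its levels in MSM of the TDLN were 43.5, 35.2 and 42.5 CPM in CIS libraries and 39.0, 42.5 and 37.1 CPM in PBS libraries (0.05, SE 0.14, adjusted p = 0.8127). The 2 effects differed by 1.11 (SE 0.20, adjusted p = 0.00134), and by 1.16 without the crossed libraries. The deposited per-length values of Notch2 in MSM of the TDLN were 10 to 12 with CIS and 5 with PBS, unlike its CPM.

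In SSM the pattern of Notch2 was the other way round, with 95.9, 99.5 and 108 CPM in LN CIS libraries against 63.1, 82.4 and 76.4 CPM in LN PBS libraries. The groups did not overlap, but the rise of 0.43 (SE 0.13, adjusted p = 0.05852) passed the test only without the crossed library (0.56, SE 0.09, adjusted p = 6.365e-05), without SSM LN PBS replicate 2, which is that library (adjusted p = 0.0155), or in DESeq2 (adjusted p = 0.03091). Notch2 in SSM of the TDLN had 36.5, 34.4 and 40.3 CPM in CIS libraries and 39.6, 45.6 and 47.0 CPM in PBS libraries (-0.25, SE 0.14, adjusted p = 0.1961; -0.32, adjusted p = 0.01211 without the crossed library). The TDLN effect minus the LN effect was -0.69 (SE 0.19, adjusted p = 0.02877). The adjusted p was between 0.0574 and 0.08037 when 1 of 9 libraries was left out, namely any of the 3 SSM LN CIS libraries, SSM LN PBS replicates 1 and 3, SSM TDLN CIS replicates 1 and 2, or SSM TDLN PBS replicates 2 and 3. Without the crossed libraries it was -0.88 (SE 0.14, adjusted p = 3.045e-05).

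With PBS, Notch2 was lower in TDLN than in LN libraries of both macrophage types, by 0.91 in MSM (log2 fold change -0.91, SE 0.14, adjusted p = 0.000742) and by 0.75 in SSM (-0.75, SE 0.14, adjusted p = 0.005219). Leaving out the crossed libraries gave -1.02 and -0.63. Notch1, the most studied receptor of the family and one required for T cell commitment, was also lower in the TDLN in MSM, with 19.7, 19.1 and 20.9 CPM in TDLN libraries against 91.7, 17.3 and 106 CPM in LN libraries, the crossed library overlapping the TDLN values. The log2 fold change was -1.87 (SE 0.52, adjusted p = 0.01765), and the adjusted p rose to between 0.0622 and 0.0687 when any 1 of the 3 TDLN libraries or of LN replicates 1 and 3 was left out. Without the crossed library it was -2.33 (SE 0.09, adjusted p = 2.505e-13).

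Cisplatin effects on Notch1 in macrophages passed no test with all libraries, and in the LN they followed the crossed ones. Notch1 in MSM of the LN had 79.0, 76.3 and 79.0 CPM in CIS libraries and 91.7, 17.3 and 106 CPM in PBS libraries. The log2 fold change was 0.12 (SE 0.50, adjusted p = 0.8714) with the crossed library and -0.34 (SE 0.08, adjusted p = 0.000785) without it. Notch1 in SSM of the LN had 54.8, 54.6 and 55.0 CPM in CIS libraries and 18.2, 87.6 and 19.9 CPM in PBS libraries. The log2 fold change was 0.37 (SE 0.57, adjusted p = 0.7293) with the crossed library and 1.55 (SE 0.12, adjusted p = 7.884e-09) without it. Without the crossed libraries Notch1 was 0.94 (SE 0.10) higher in CIS than in PBS libraries in MSM of the TDLN and 0.68 lower (log2 fold change -0.68, SE 0.13) in SSM of the TDLN.

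In rDC the 3 receptors were all well read. Notch1 stood at 78.1, 81.4 and 70.1 CPM in LN CIS libraries against 53.8, 46.4 and 51.2 CPM in LN PBS libraries, without overlap, a rise of 0.68 (SE 0.15, adjusted p = 0.005302). In the TDLN it stood at 78.8, 127 and 77.3 CPM in CIS libraries against 128, 134 and 137 CPM in PBS libraries, and the log2 fold change of -0.49 (SE 0.15, adjusted p = 0.1927) did not pass. CIS replicate 2 lay close to the PBS libraries, and without it the value was -0.76 (adjusted p = 3.303e-05). The TDLN effect minus the LN effect was -1.17 (SE 0.21, adjusted p = 0.002577).

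Notch4 in rDC ran the other way in the LN. It stood at 33.2, 31.8 and 30.1 CPM in CIS libraries against 61.4, 58.4 and 60.8 CPM in PBS libraries, and fell by 0.84 (SE 0.13, adjusted p = 0.0003196). In the TDLN the libraries overlapped, at 35.1, 53.0 and 42.1 CPM with CIS and 41.9, 46.8 and 47.1 CPM with PBS, and the TDLN effect minus the LN effect was 0.79 (SE 0.19, adjusted p = 0.01804), or 0.75 (adjusted p = 0.05966) without rDC TDLN PBS replicate 1. The rDC LN CIS libraries held 2986600 to 3570676 counts and the rDC LN PBS libraries 10733509 to 14869939.

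Markers of plasmacytoid dendritic cells, 6 in all, summed to 3658 to 4423 CPM in rDC TDLN CIS, 3871 to 4078 CPM in rDC TDLN PBS, 2383 to 2521 CPM in rDC LN CIS and 2236 to 2432 CPM in rDC LN PBS. They moved with the node difference in rDC. With PBS, Notch1 was higher in the TDLN (128, 134 and 137 CPM) than in the LN (53.8, 46.4 and 51.2 CPM; log2 fold change 1.46, SE 0.15, adjusted p = 2.665e-06). Notch2 was lower in the TDLN by 0.42 (-0.42, SE 0.11, adjusted p = 0.008858). Notch4 had -0.35 (SE 0.13, adjusted p = 0.04997), just inside the threshold, and was lost when any 1 library of either group was left out (adjusted p 0.06359 to 0.1725). It passed in 0 of the 5 thinning draws (adjusted p 0.0532 to 0.183). T cell markers summed to 1047 to 1070 CPM in rDC TDLN PBS against 492 to 534 CPM in rDC LN PBS, and B cell markers to 2452 to 2607 CPM against 4033 to 4675 CPM. The part of the plasmacytoid, T cell and B cell markers in the rDC node differences, those of Dll4 included, was not tested.

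In mDC, Notch2 was the main receptor. It stood at 91.6, 85.3 and 85.0 CPM in TDLN CIS libraries against 124, 119 and 118 CPM in TDLN PBS libraries, without overlap, and fell by 0.33 (log2 fold change -0.33, SE 0.07, adjusted p = 0.001162). It passed in 4 of the 5 thinning draws (adjusted p 0.003602 to 0.06015). In the LN it stood at 66.7, 58.5 and 67.6 CPM with CIS and 62.9, 66.6 and 66.7 CPM with PBS (-0.06, SE 0.09, adjusted p = 0.7325), and the difference between the nodes' effects did not pass (-0.26, SE 0.12, adjusted p = 0.1332). With PBS, Notch2 was higher in the TDLN than in the LN (0.71, SE 0.08, adjusted p = 4.322e-07). Notch1 lay between 2.77 and 13.6 CPM and Notch4 between 1.59 and 12.1 CPM in mDC, and neither passed a cisplatin or node test there with all libraries. Notch4 in the LN reached 1.90 (adjusted p = 0.008866) without CIS replicate 1, and Notch1 reached -1.02 between the nodes (adjusted p = 0.0135) without LN PBS replicate 2.

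**Figure D2:**
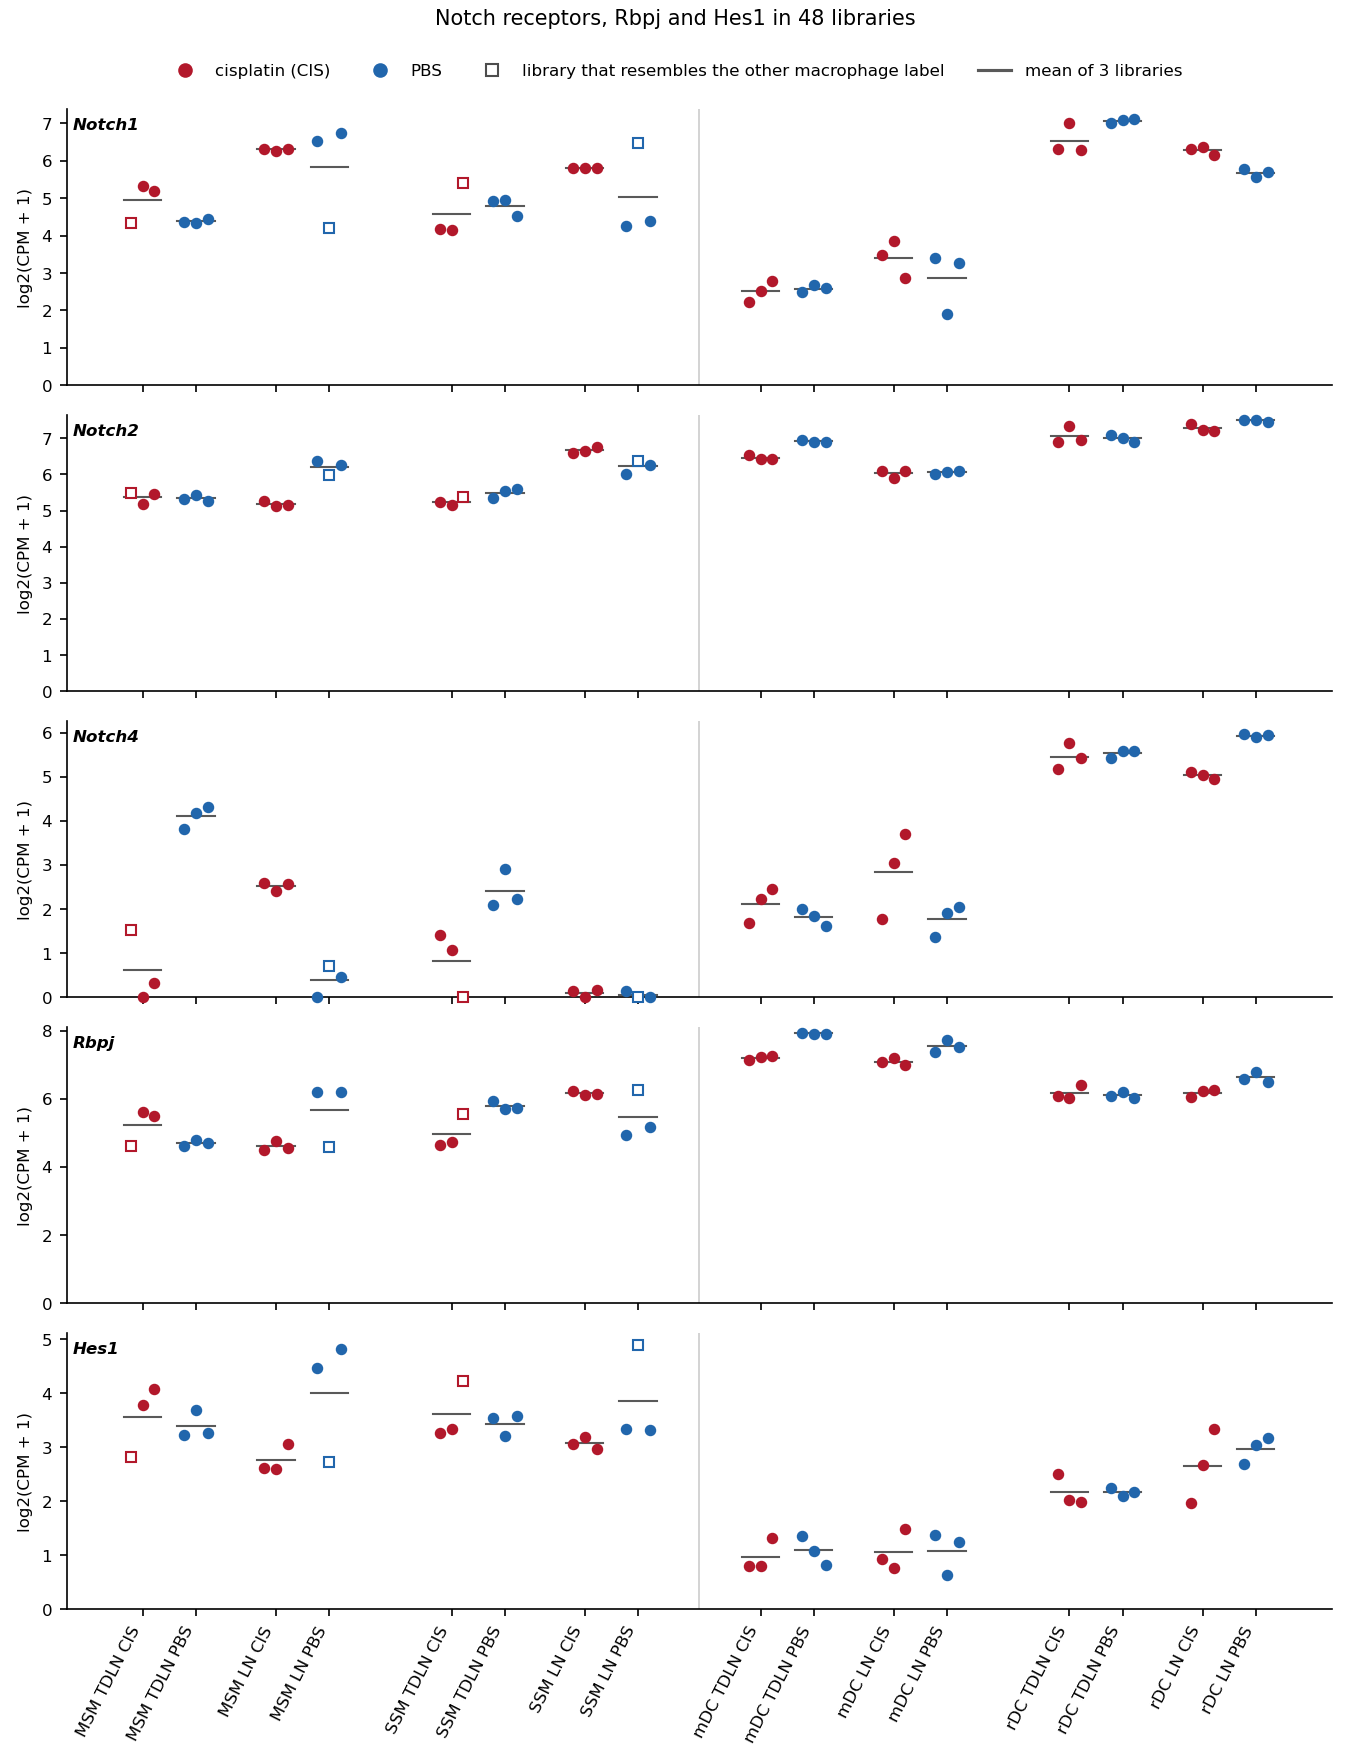
Levels of Notch1, Notch2, Notch4, Rbpj and Hes1 in every library as log2(CPM + 1) on the vertical axis, drawn as for the ligands, cisplatin in red left of PBS in blue, open squares for crossed libraries and bars for means of 3 libraries on the log scale. Notch4 is high in rDC and, among macrophages, in MSM TDLN PBS, and Rbpj in mDC lies lower with cisplatin than with PBS in both nodes.

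Rbpj, the DNA-binding partner of all Notch receptors, was lower with cisplatin in mDC of both nodes. It stood at 141, 149 and 153 CPM in TDLN CIS libraries against 244, 240 and 240 CPM in TDLN PBS libraries (log2 fold change -0.57, SE 0.07, adjusted p = 1.9e-06). In the LN it stood at 134, 147 and 126 CPM in CIS libraries against 165, 213 and 184 CPM in PBS libraries (-0.49, SE 0.08, adjusted p = 0.0001543). In neither node did the groups overlap, and the nodes' effects differed by -0.09 (SE 0.11, adjusted p = 0.6365).

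The node difference of Rbpj in mDC with PBS, 0.20 (SE 0.07, adjusted p = 0.02919), was small. It passed in 1 of the 5 thinning draws (adjusted p 0.03852 to 0.1678), and was lost without any 1 of mDC LN PBS replicates 1 and 3 and mDC TDLN PBS replicates 1 and 2 (adjusted p 0.05045 to 0.1918). In rDC of the LN, Rbpj stood at 66.0, 74.0 and 75.7 CPM in CIS libraries against 94.6, 110 and 90.0 CPM in PBS libraries, without overlap (-0.37, SE 0.11, adjusted p = 0.02757). The call held in 3 of the 5 thinning draws (adjusted p 0.02101 to 0.116). It was lost without CIS replicate 1 (adjusted p = 0.07633) and without PBS replicate 2 (adjusted p = 0.09852). With PBS, Rbpj in rDC was lower in TDLN than in LN libraries (-0.47, SE 0.11, adjusted p = 0.005583).

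Rbpj in MSM of the LN stood at 21.6, 26.0 and 22.6 CPM in CIS libraries against 72.3, 23.0 and 73.2 CPM in PBS libraries, the crossed library lying among the CIS values. It fell by 1.27 (SE 0.40, adjusted p = 0.02587), and by 1.64 (SE 0.10, adjusted p = 3.853e-11) without the crossed library. Leaving out any 1 of the 3 CIS libraries or PBS replicates 1 and 3 gave an adjusted p of 0.06102 to 0.09099. With PBS it was lower in TDLN than in LN libraries (-1.18, SE 0.40, adjusted p = 0.03806; without any 1 of the 3 TDLN libraries or LN replicates 1 and 3, 0.1031 to 0.1437). Without the crossed library it was -1.55. The TDLN effect minus the LN effect was 1.91 (SE 0.56, adjusted p = 0.01978), or 2.54 without the crossed libraries, with an adjusted p of 0.05051 to 0.05515 without MSM LN PBS replicate 1 or MSM TDLN PBS replicate 1 or 3.

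In SSM, Rbpj passed only when the crossed libraries were left out, and its directions differed between the nodes. It stood at 24.2, 25.4 and 45.8 CPM in TDLN CIS libraries against 59.8, 50.6 and 52.1 CPM in TDLN PBS libraries (-0.77, SE 0.35, adjusted p = 0.1365; -1.12, SE 0.10, adjusted p = 4.464e-08 without the crossed library). In the LN it stood at 74.6, 68.8 and 69.1 CPM in CIS libraries against 30.0, 76.1 and 35.4 CPM in PBS libraries (0.57, SE 0.35, adjusted p = 0.3155; 1.14, SE 0.10, adjusted p = 2.667e-08). The difference of these effects, -1.34 (SE 0.49, adjusted p = 0.07928), was -2.26 (SE 0.14, adjusted p = 2.384e-10) without the crossed libraries.

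Hes1, a repressor gene switched on by Notch signalling in many tissues, was low everywhere. It stood in MSM of the LN at 5.15, 5.03 and 7.33 CPM in CIS libraries against 21.0, 5.57 and 27.2 CPM in PBS libraries. It fell by 1.62 (SE 0.54, adjusted p = 0.03268), or by 2.04 (SE 0.21, adjusted p = 6.522e-08) without the crossed library. Leaving out any 1 of the 3 CIS libraries or PBS replicates 1 and 3 raised its adjusted p to between 0.06082 and 0.1242. Its levels in MSM of the TDLN were 6.09, 12.8 and 16.0 CPM in CIS libraries and 8.31, 11.9 and 8.58 CPM in PBS libraries, which overlapped (0.30, SE 0.52, adjusted p = 0.7029; 0.61, SE 0.21, adjusted p = 0.01406 without the crossed library). In SSM it passed no test with or without the crossed libraries. In rDC it ranged from 2.90 to 9.06 CPM. With PBS its node difference of -0.89 (SE 0.33, adjusted p = 0.05503) did not pass with all libraries and did without rDC LN PBS replicate 1 (adjusted p = 0.04743) or without the low-count filter (adjusted p = 0.003275). In mDC it did not exceed 1.79 CPM and was under the low-count limit.

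Set per length in transcripts per 1000000 (TPM), which allows genes to be compared with each other, Dll4 and Jag1 changed places between the dendritic cell types. In mDC of the TDLN, Dll4 averaged 28.4 ± 6.44 TPM with CIS and 2.99 ± 0.212 TPM with PBS (SD, n = 3 each), and Jag1 averaged 37.0 ± 1.34 TPM with CIS and 43.3 ± 1.73 TPM with PBS. As a share of the summed TPM of the 4 ligands, Dll4 made up 38.1% ± 6.86 with CIS and 5.78% ± 0.247 with PBS, and Jag1 50.0% ± 2.64 with CIS and 83.8% ± 0.569 with PBS. In rDC the Dll4 share was 70.5% ± 5.74 in TDLN CIS, 73.3% ± 1.48 in TDLN PBS, 65.3% ± 3.46 in LN CIS and 58.1% ± 2.93 in LN PBS, with Jag1 under 2.24% in each library.

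Jag2 was the second ligand of rDC in TPM, at a share of 15.7% to 27.5% in the group means. Of the summed TPM of the 3 receptors, Notch2 made up 74.2% ± 12.8 in mDC TDLN CIS and 92.9% ± 1.41 in mDC TDLN PBS, against 44.3% ± 7.88 in rDC TDLN CIS and 39.0% ± 2.17 in rDC TDLN PBS. Notch1 in rDC averaged 28.2 ± 6.34 TPM in TDLN CIS, 35.3 ± 5.68 TPM in TDLN PBS, 25.0 ± 5.17 TPM in LN CIS and 10.9 ± 1.60 TPM in LN PBS (SD, n = 3 each). These shares are descriptions of levels, with the depth differences named above.

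**Figure D3:**
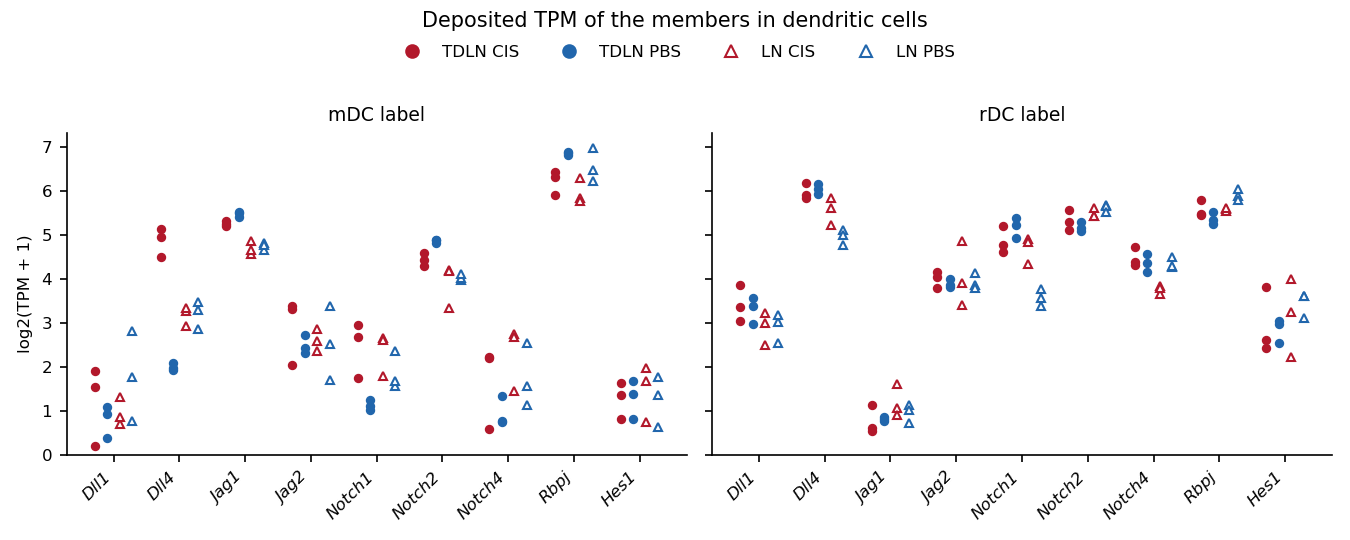
Ligand and receptor levels in dendritic cells on the per-length scale, log2(TPM + 1), for mDC at left and rDC at right, with points for libraries and the 4 node and treatment groups side by side, cisplatin left of PBS. Jag1 is the highest ligand in all 4 mDC groups by group mean, Dll4 is highest in all 4 rDC groups, and in mDC TDLN CIS Dll4 comes closest to Jag1.

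Between the dendritic cell types with PBS, 6 of the 7 members other than Dll1 and Dll4 passed in the TDLN and 7 of 7 in the LN. Of all genes tested 72.4% and 66.6% passed, so that most of the transcriptome differed too. In the LN with PBS, Jag1 was higher in mDC (log2 fold change 5.14, SE 0.14, adjusted p = 1.115e-22), and so was Rbpj (0.94, SE 0.10, adjusted p = 1.267e-09). Dll1 (-1.57, SE 0.32), Dll4 (-1.96, SE 0.17), Jag2 (-1.38, SE 0.22), Notch1 (-2.77, SE 0.25), Notch2 (-1.44, SE 0.10), Notch4 (-4.59, SE 0.30) and Hes1 (-2.46, SE 0.47) were lower in mDC. In the TDLN with PBS the directions were the same for the 6 that passed and for Dll1 and Dll4, with Dll4 at -4.18 (SE 0.14) and Jag1 at 6.37 (SE 0.18). Notch2 did not pass (-0.10, SE 0.09, adjusted p = 0.3035). In the 5 thinning draws of that comparison Notch2 passed in 2 (adjusted p 0.01414 to 0.2267) and Hes1 in 4 (0.0002313 to 0.05094).

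With cisplatin, where Dll1 and Dll4 are not tested, 6 of the other 7 passed between mDC and rDC in the TDLN and 6 of 7 in the LN, against 56.1% and 54.9% of all genes. Jag2 was the exception in each (adjusted p = 0.05182 in the TDLN and 0.1091 in the LN), and in the TDLN it passed without mDC CIS replicate 2 (-0.61, adjusted p = 0.01818) or without rDC CIS replicate 3 (-0.54, adjusted p = 0.02524). Dll4 itself was 1.15 lower on the log2 scale in mDC than in rDC of the TDLN with cisplatin (log2 fold change -1.15, SE 0.13), beside the -4.18 with PBS given above. In the LN it was -2.44 (SE 0.16) with cisplatin beside -1.96 with PBS.

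Between the macrophage types, the comparisons that hold crossed libraries in both arms called no gene at all. Of the members other than Dll1 and Dll4, 0 of 7 passed in the TDLN with cisplatin and 0 of 7 in the LN with PBS, beside 0% of all genes in each. At an unadjusted p under 0.05 edgeR had 178 and 245 genes there, and DESeq2 called 0 and 2. Without the crossed libraries 6 of 7 and 5 of 7 of these members passed, against 63.3% and 62.0% of all genes. In the LN with PBS, Notch1 was then 2.34 higher in MSM (SE 0.11, adjusted p = 9.529e-16) and Dll1 lower (-1.22, SE 0.21).

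In the TDLN with PBS, where no library is crossed, Dll1 was at 7.72, 5.70 and 6.03 CPM in MSM and at 0 counts in all 3 SSM libraries, at least 18.5-fold higher in MSM. Rbpj was lower in MSM (-1.11, SE 0.39, adjusted p = 0.02815; adjusted p 0.05576 to 0.07666 without any 1 of the 3 MSM libraries or SSM replicates 1 and 2). Rbpj was the 1 that passed of 7 members other than Dll1 and Dll4, against 40.8% of all genes. Of these 7, 5 passed, against 67.1%, when the crossed libraries of the other groups were left out of the shared fit.

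In the LN with cisplatin, also free of crossed libraries, MSM had 27.5, 22.3 and 28.2 CPM of Dll4 against 0.644, 0.115 and 0.113 CPM in SSM. Jag2 was at 0 counts in all MSM libraries and at 6.44, 8.16 and 7.81 CPM in SSM, at least 19.3-fold lower in MSM (adjusted p = 0.008522). Notch2 (-1.52, SE 0.13, adjusted p = 2.505e-08) and Rbpj (-1.60, SE 0.39, adjusted p = 0.002682) were lower in MSM and Notch4 higher (5.74, SE 1.32, adjusted p = 0.001647). These were 4 of 7 members against 49.7% of all genes, and 6 of 7 against 72.4% without the crossed libraries elsewhere.

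Counted over the members, calls with cisplatin numbered 1 of 7 in MSM of the TDLN, 5 of 7 in MSM of the LN, and 0 of 7 in SSM of either node, while 37.1%, 43.4%, 23.0% and 13.3% of all genes tested passed in the same 4 comparisons. At an unadjusted p under 0.05, edgeR had 6393 and 4927 of all genes in the SSM comparisons, and DESeq2 called 0 of the 7 members in the TDLN and 1 in the LN. Without the crossed libraries the counts were 6, 6, 5 and 4 of 7, against 69.0%, 74.0%, 71.1% and 60.0% of all genes. Leaving out 1 library at a time gave 1 to 5 calls in MSM of the LN and 0 to 3 in each SSM comparison.

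In dendritic cells 3 of 6 tested members passed with cisplatin in mDC of the TDLN, 1 of 6 in mDC of the LN, 0 of 7 in rDC of the TDLN and 3 of 7 in rDC of the LN. The shares of all genes were 27.3%, 11.0%, 1.01% and 17.9%. In rDC of the TDLN edgeR had 1324 genes at an unadjusted p under 0.05, and DESeq2 called none of the 7 members. The contrasts are those from which Dll1 and Dll4 were picked, and the shares are given as background only.

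Between the nodes with PBS, the members other than Dll1 and Dll4 gave 4 of 7 in MSM, 2 of 7 in SSM, 3 of 6 in mDC and 4 of 7 in rDC. The shares of all genes were 38.2%, 19.7%, 29.1% and 27.0%. Without the crossed libraries 7 of 7 of these members passed in MSM and 5 of 7 in SSM, against 69.7% and 67.8%. The difference between the nodes' cisplatin effects passed for 3 of 7 members in MSM, 1 of 7 in SSM, 0 of 6 in mDC and 2 of 7 in rDC. The shares of all genes for that difference were 40.7%, 21.6%, 15.6% and 5.31%. In the uncrossed libraries 6 of 7 in MSM and 5 of 7 in SSM passed, against 65.1% and 65.8%. For mDC, 3682 of all genes had an unadjusted p under 0.05 and DESeq2 called none of the 6 members.

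**Figure D4:**
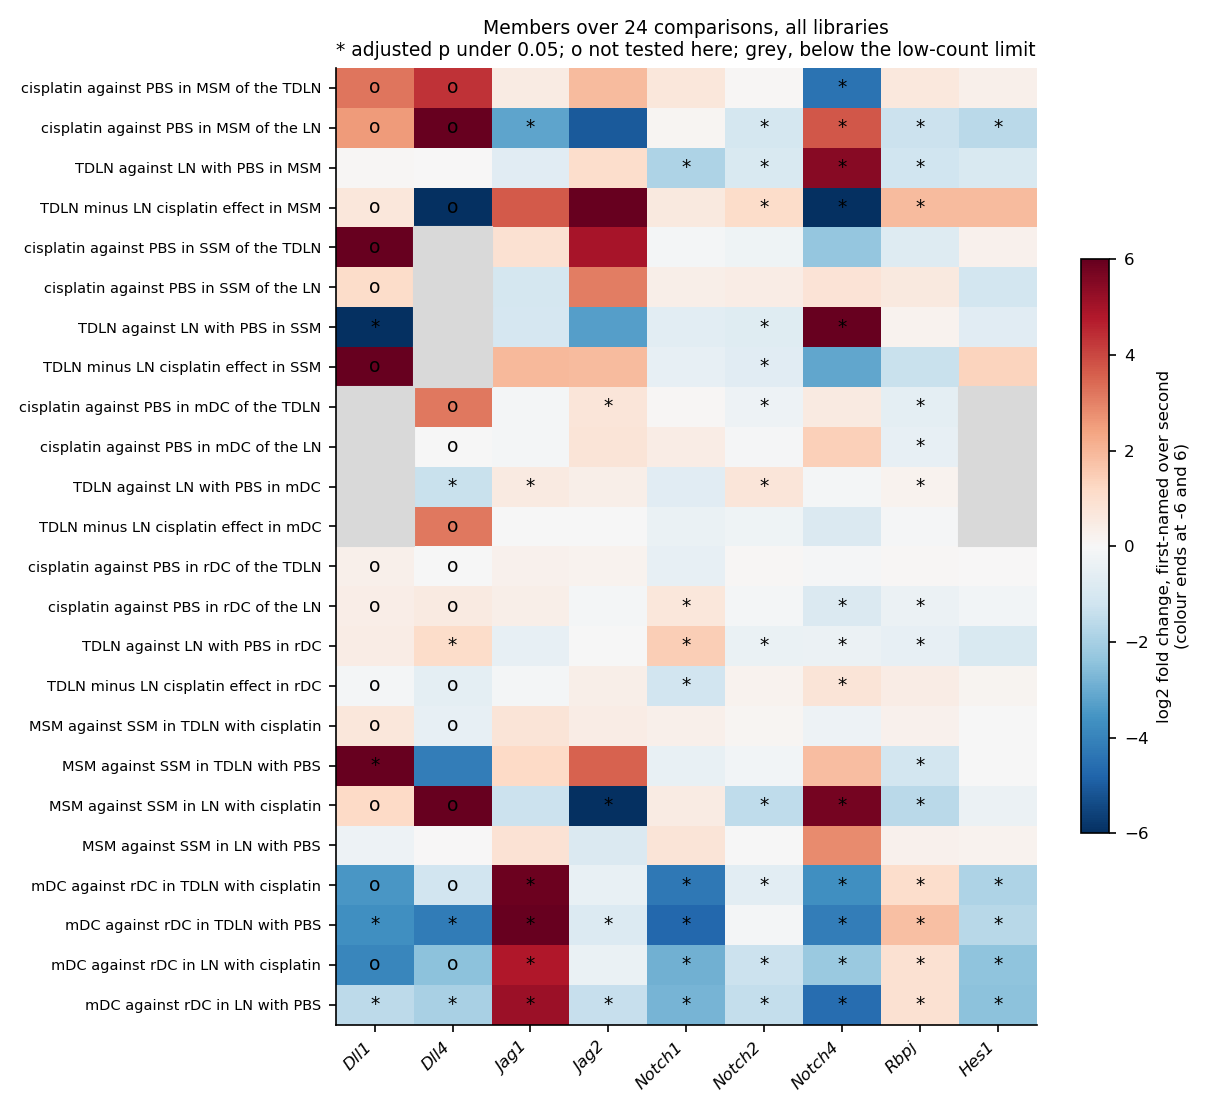
Fitted log2 fold changes of the 9 members (columns) in the comparisons made (rows), coloured from blue (lower in the group named first) to red (higher). The scale ends at -6 and 6. An asterisk marks an adjusted p under 0.05, a circle a cisplatin value of Dll1 or Dll4, which were picked on it, and grey a gene under the low-count limit. Asterisks of Dll1 and Dll4 in PBS rows rest on the control libraries of that choice and are not read as tests. Rbpj is blue with asterisks for cisplatin in mDC of both nodes.

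The 76 other genes on lists of the pathway (further ligands and receptors, genes for ligand activity and receptor glycosylation, receptor cleavage, nuclear cofactors, trafficking and turnover, and targets) were counted in the same fits. In MSM of the TDLN 15 of 63 tested rose with cisplatin and 9 fell, and in MSM of the LN 4 rose and 20 fell, so that 24 passed in each, where 37.1% and 43.4% of all genes did. The medians were 0.05 and -0.35 on the log2 scale beside 0.19 and -0.15 over all genes. With the crossed libraries left out, 26 rose and 23 fell of 64 in the TDLN, and 13 rose and 37 fell in the LN, where 69.0% and 74.0% of all genes passed. Of the 20 that fell in the LN, 6 belonged to ligand activity and glycosylation and 5 each to receptor cleavage and to trafficking and turnover. In SSM 9 rose and 10 fell of 65 in the TDLN, and 4 rose and 8 fell in the LN, where 23.0% and 13.3% of all genes passed. Leaving out the crossed libraries, 24 of 65 rose and 32 fell in the TDLN, and 27 rose and 17 fell in the LN, where 71.1% and 60.0% of all genes passed. The other pathway genes named below for macrophages kept their direction and call without the crossed libraries, in 60 of 60 values. They were picked for passing with all libraries and, except for node differences of the cisplatin effect, for groups without overlap. The agreement was therefore largely set by that choice and is no separate test.

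Among single genes in MSM of the TDLN, the proto-oncogene and Notch target Myc averaged 138 CPM with CIS and 17.3 CPM with PBS (log2 fold change 3.01, SE 0.29, adjusted p = 4.583e-05), and Cntn1, a non-classical Notch ligand of the nervous system, 18.8 CPM and 1.46 CPM (3.69, SE 0.61, adjusted p = 0.001181). Nrarp, a target that dampens Notch signalling, averaged 5.32 CPM with CIS and 31.1 CPM with PBS (-2.52, SE 0.27, adjusted p = 7.951e-05). The coactivator gene Maml3 was at least 26.5-fold higher with CIS (adjusted p = 0.0194). In MSM of the LN, Myc (0.99, SE 0.27) and the Fringe gene Mfng (0.90, SE 0.14) rose. Psen2, which encodes a gamma-secretase subunit, fell by 2.45 (SE 0.25), and the mediator kinase gene Cdk8 fell by 3.93 (SE 0.37). Dtx4, a Deltex ubiquitin ligase gene, was at 0 counts with CIS and 8.88 CPM with PBS, at least 22.9-fold lower.

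Gxylt1, which adds a sugar to Notch receptors, rose in SSM of the TDLN (1.51, SE 0.25, adjusted p = 0.003221) and the corepressor gene Spen fell by 1.28 (SE 0.27, adjusted p = 0.009196). In SSM of the LN, Aph1c, a mouse gamma-secretase subunit gene, averaged 33.4 CPM with CIS and 6.37 CPM with PBS (2.38, SE 0.45, adjusted p = 0.009046). Aph1c has close paralogs, and the authors' assignment of shared reads could affect its level.

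In mDC of the TDLN 13 of 61 other pathway genes rose with cisplatin and 10 fell, and in mDC of the LN 6 rose and 1 fell, where 27.3% and 11.0% of all genes passed. Of the 8 targets tested, 5 rose in the TDLN and 2 in the LN and none fell, while 1768 and 770 of all 12519 genes rose. The list medians were 0.51 and 0.36 beside -0.01 and -0.01 over all genes. Il2ra, the interleukin-2 receptor alpha chain, averaged 83.5 CPM with CIS and 53.3 CPM with PBS in the TDLN (0.78, SE 0.09, adjusted p = 7.477e-07), and Dtx1, a Deltex gene and Notch target, 21.0 CPM and 11.5 CPM (1.00, SE 0.16, adjusted p = 7.928e-05). The coactivator gene Maml1 fell by 0.68 (SE 0.19, adjusted p = 0.009172). In the LN the complement receptor gene Cr2 rose by 0.96 (SE 0.19, adjusted p = 0.001207) and the ubiquitin ligase gene Mib1, which activates ligands, fell by 0.74 (SE 0.15, adjusted p = 0.001808).

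In rDC of the TDLN none of 64 rose or fell by edgeR, where 1.01% of all genes passed, and in rDC of the LN 7 rose and 5 fell, where 17.9% did. The transcription factor gene Gata3, a Notch target in helper T cells, averaged 9.65 CPM with CIS and 1.14 CPM with PBS in rDC of the LN (3.12, SE 0.29, adjusted p = 2.386e-06), and Il2ra 9.09 CPM and 3.01 CPM (1.66, SE 0.27, adjusted p = 0.0006025). Natural killer cell markers summed to 78.2 to 86.0 CPM in rDC LN CIS against 6.42 to 11.9 CPM in rDC LN PBS, and T cell markers to 634 to 656 CPM against 492 to 534 CPM; their part in these values was not tested. Ccnd1, a cyclin gene, fell by 0.87 (SE 0.11) and Myc by 0.47 (SE 0.11).

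Between the nodes with PBS, the receptor gene Notch3, which was not a member, averaged 35.0 CPM in rDC of the TDLN and 7.24 CPM in rDC of the LN (2.32, SE 0.21, adjusted p = 8.927e-07). Myc was lower in rDC of the TDLN, 88.9 CPM against 199 CPM (-1.09, SE 0.12, adjusted p = 5.992e-06), and also in MSM of the TDLN, 17.3 CPM against 114 CPM (-2.73, SE 0.29, adjusted p = 7.274e-05). In mDC the acetyltransferase coactivator genes Ep300 (0.74, SE 0.09) and Crebbp (0.71, SE 0.08) were higher in the TDLN, and the Fringe gene Lfng (-0.43, SE 0.08) lower. The counts were 7 higher and 13 lower in MSM, 4 and 9 in SSM, 13 and 5 in mDC and 9 and 7 in rDC, where 38.2%, 19.7%, 29.1% and 27.0% of all genes passed. Leaving out the crossed libraries made them 23 higher and 30 lower in MSM and 26 and 23 in SSM, where 69.7% and 67.8% of all genes passed.

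Between mDC and rDC 14 to 21 of 64 were higher in mDC and 24 to 29 lower over the 4 comparisons, where 54.9% to 72.4% of all genes passed. Poglut1, an enzyme that adds glucose to Notch receptors, averaged 794 CPM in mDC and 46.3 CPM in rDC of the TDLN with cisplatin (4.10, SE 0.11, adjusted p = 9.093e-23), and 969 CPM and 51.3 CPM with PBS (4.21, SE 0.11, adjusted p = 1.832e-23). Mfng was lower in mDC, 10.9 CPM against 64.1 CPM in the TDLN with cisplatin (-2.56, SE 0.17, adjusted p = 9.818e-14). Between MSM and SSM 10 were higher and 11 lower in MSM of the TDLN with PBS, and 7 and 26 in the LN with cisplatin, where 40.8% and 49.7% of all genes passed. With crossed libraries left out they were 24 and 23, and 20 and 32, where 67.1% and 72.4% passed.

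Ordered by mean level over the 8 macrophage groups, Dll1 ran from MSM TDLN CIS (60.1 CPM) through SSM TDLN CIS (37.8 CPM) and MSM LN CIS (36.5 CPM) to SSM LN CIS (16.1 CPM), followed by the 4 PBS groups from 7.52 CPM down to 0. The first 3 overlapped their neighbours, while MSM LN CIS and SSM LN CIS did not. If the crossed libraries are left out, MSM TDLN CIS was at 84.8 CPM and SSM TDLN CIS at 10.1 CPM, which put it below SSM LN CIS. For Dll4 in dendritic cells the order was rDC TDLN PBS (138 CPM), rDC TDLN CIS (136 CPM), rDC LN CIS (93.8 CPM), rDC LN PBS (67.2 CPM), mDC TDLN CIS (62.1 CPM), mDC LN PBS (17.1 CPM), mDC LN CIS (17.1 CPM) and mDC TDLN PBS (7.67 CPM). In that order the 2 highest groups overlapped, as did rDC LN PBS with mDC TDLN CIS, and mDC LN PBS with mDC LN CIS.

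For the remaining members the order in dendritic cells mostly separated the cell types. Jag1 and Rbpj were higher in each mDC group than in each rDC group, and Notch1, Notch4 and Hes1 were higher in each rDC group, in all libraries of these groups. Notch2 ran from rDC LN PBS (179 CPM) to mDC LN CIS (64.3 CPM), with rDC TDLN PBS and mDC TDLN PBS overlapping, and Jag2 from rDC TDLN CIS (19.1 CPM) to mDC LN PBS (6.51 CPM) with each neighbouring pair overlapping except mDC TDLN PBS and mDC LN PBS. In macrophages MSM LN CIS was the lowest group for Jag1 (1.28 CPM), Jag2 (0), Notch2 (35.3 CPM), Hes1 (5.84 CPM) and Rbpj (23.4 CPM), and the highest for Dll4 (26.0 CPM) and Notch1 (78.1 CPM). In the uncrossed libraries SSM TDLN CIS was lower for Jag1 (0.268 CPM) and level for Jag2 (0), and MSM LN PBS was higher for Notch1 (99.0 CPM).

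The genes most like Dll1 across the 24 macrophage libraries, by the correlation of log2(CPM + 1) over 10380 genes, were Fscn1 (r = 0.912), Uap1 (r = 0.896), Nfrkb (r = 0.886), Plekha8 (r = 0.871) and Arhgap22 (r = 0.869). Fscn1 is the actin-bundling gene fascin, a marker of migrating dendritic cells. Those most like Dll4 were Gzma (r = 0.981), a granzyme gene of cytotoxic lymphocytes, Mrpl15 (r = 0.962), Lsm4 (r = 0.959), Pqbp1 (r = 0.938) and Nmd3 (r = 0.938), a likeness carried by the 3 MSM LN CIS libraries in which Dll4 was read.

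Across the 24 dendritic cell libraries and 10484 genes, Dll1 was most like Klk1b27 (r = 0.960), Tnfaip8l2 (r = 0.957), Rpgrip1 (r = 0.955), Zcchc24 (r = 0.955) and Adcy3 (r = 0.954). Dll4 was most like Tmem173 (r = 0.947), which encodes the sensor protein STING, Thbs1 (r = 0.946), Tbc1d2b (r = 0.944), Spib (r = 0.938), a transcription factor gene of plasmacytoid dendritic and B cells, and Msh5 (r = 0.935). Libraries of a group share cell type and sort, and depth differed between groups, so these correlations are descriptions and follow the split between mDC and rDC.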

How the data were processed

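The labels describe RNA selected for polyA tails, TruSeq stranded mRNA libraries and sorted myeloid cells. Per the submitters' processing notes, STAR, RSEM 1.3.0, DESeq2 1.38.3 and GRCm38 were named. The authors deposited expected counts per gene, which were whole numbers here, TPM for dendritic cells, and TPM with decimals dropped for macrophages, treated as a score. Dendritic cell columns named WT were taken as LN, by elimination.

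The counts were fitted per cell type (12 libraries, 4 groups), and for pairs of cell types in 1 model of 24 libraries, with edgeR 4.0.16 (R 4.3.3, limma 3.58.1): filterByExpr, TMM scaling, quasi-likelihood test, Benjamini-Hochberg adjustment over all genes, threshold 0.05. The fits were tested on simulated data. CPM values use TMM over the 24 libraries of a table. The fitted log2 fold changes therefore differ from those of the printed CPM by 0.14 in mDC of the TDLN, -0.17 between the nodes in mDC and by less than these elsewhere. A fold against a group at 0 is a lower bound that sets 3 counts in each of its libraries. Alternatives were DESeq2 1.42.0, its size factors, no low-count filter, a replicate block, leaving out each library, leaving out the 4 crossed libraries, and thinning libraries above 5000000 counts at random to 3000000 (1 draw, and 4 more added after a second draw gave other calls). Same-numbered CIS and PBS libraries of the same cell type and node did not deviate together (correlations -0.106 to 0.0821). Same numbers across cell types or nodes were not checked. Numbers were not used as pairs. Replicates all differed by more than counting noise.

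The members and gene lists were chosen with earlier results of these data known. Other pathway genes are named by a rule: among those past the threshold, without overlap of the groups and with group means averaging at least 4 CPM, up to 3 per direction by size of change. For node differences of the cisplatin effect, overlap was not part of the rule. A gene symbol was found for 99.4% of gene ids. Arms of the series given PLX4720 are not analysed here. A further pathway gene that met the rule is not reported here.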

Additional observations from a re-analysis of the deposited data

Results flagged for a closer look

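The effect of cisplatin differed between the TDLN and the LN, by the test of the difference itself, for 6 values among the members other than Dll1 and Dll4, where each value is the log2 effect in the TDLN minus that in the LN. In MSM these were Notch2 (1.11, SE 0.20, adjusted p = 0.00134), Notch4 (-8.14, SE 1.5, adjusted p = 0.001688) and Rbpj (1.91, SE 0.56, adjusted p = 0.01978). In SSM it was Notch2 (-0.69, SE 0.19, adjusted p = 0.02877). In rDC these were Notch1 (-1.17, SE 0.21, adjusted p = 0.002577) and Notch4 (0.79, SE 0.19, adjusted p = 0.01804). Notch4 thus had opposite signs in MSM and rDC, and Notch2 in MSM and SSM, differences that were not tested between cell types. The macrophage values rest on fits that hold crossed libraries, and without these the values were 1.16 for Notch2, -11.44 for Notch4 and 2.54 for Rbpj in MSM, and -0.88 for Notch2 in SSM. The calls of Notch2 in SSM, Rbpj in MSM and Notch4 in rDC were each lost when single libraries named above were left out.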

How the results depend on the processing

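The number of members called, counted without Dll1 and Dll4, rose when the 4 crossed libraries were left out. With cisplatin it was 6 instead of 1 in MSM of the TDLN, 5 instead of 0 in SSM of the TDLN and 4 instead of 0 in SSM of the LN. The shares of all genes there were 69.0%, 71.1% and 60.0% instead of 37.1%, 23.0% and 13.3%. Between the nodes 8 members instead of 4 passed in MSM and 6 instead of 3 in SSM, beside 69.7% and 67.8% of all genes instead of 38.2% and 19.7%. For the node difference of the cisplatin effect 6 members instead of 3 passed in MSM and 5 instead of 1 in SSM. Of all genes, 65.1% and 65.8% did instead of 40.7% and 21.6%. Between MSM and SSM 6 members instead of 0 passed in the TDLN with cisplatin, 7 instead of 2 in the TDLN with PBS and 6 instead of 0 in the LN with PBS. Of all genes, 63.3%, 67.1% and 62.0% did instead of 0%, 40.8% and 0%. The sign turned for Notch1 in MSM of the LN with cisplatin (-0.34), Jag1 in SSM of the TDLN with cisplatin (-3.50), Notch1 between the nodes in SSM (0.54), the node differences of Jag1 (-3.08) and Jag2 (-5.49) in SSM, and Hes1 between MSM and SSM in the TDLN with cisplatin (0.69). Leaving out 1 library at a time gave 1 to 5 calls with cisplatin in MSM of the LN (1 without PBS replicate 3, and 2 without PBS replicate 1 or any CIS library). Between the nodes in MSM the range was 2 to 5 with Dll1 and Dll4 counted in (2 without any TDLN library or LN replicate 1 or 3). The MSM node difference ranged from 2 to 6 (6 without either crossed library) and that of SSM from 0 to 4 (4 without SSM TDLN CIS replicate 3, 3 without SSM LN PBS replicate 2). With cisplatin, SSM ranged from 0 to 3 in the TDLN (3 without CIS replicate 3) and from 0 to 3 in the LN (3 without PBS replicate 2). It was 1 to 2 in mDC of the LN (2 without CIS replicate 1), 0 to 1 in rDC of the TDLN (1 without CIS replicate 2) and 1 to 3 for the rDC node difference (1 without TDLN PBS replicate 1). Between MSM and SSM in the TDLN with PBS it was 1 to 2, again with Dll1 and Dll4 counted in. Jag1 ranged from -3.51 to 1.47 in SSM of the TDLN, its SSM node difference from -2.47 to 2.50, and that of Jag2 from -5.77 to 2.50. The replicate numbers were not used as pairs in the main fits, and with the replicate block 2 instead of 5 members passed with cisplatin in MSM of the LN. In the same comparison 4 instead of 5 passed with DESeq2's size factors in edgeR. DESeq2 called 1 instead of 0 with cisplatin in SSM of the LN and 2 instead of 1 for the SSM node difference. Without the low-count filter the counts were 0 instead of 1 for the SSM node difference, 2 instead of 0 for the mDC node difference (Notch2 and Rbpj) and 1 instead of 0 for rDC of the TDLN (Notch1). Dll4 in rDC of the LN then had 0.25 on the log2 scale. Over the 5 thinning draws the node difference in mDC gave 0 calls in each. The counts of calls in the other dendritic cell comparisons stayed within 1.5 times those without thinning. Those counts include Dll1 and Dll4 where all compared libraries had PBS. The cause of these changes was not tested.

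Counts of all genes moved by more than 1.5 times as follows. Without the crossed libraries they did so in all 12 macrophage comparisons, for example 12674 instead of 6305 with cisplatin in MSM of the TDLN and 10574 instead of 2240 in SSM of the LN. DESeq2 called 3554 instead of 2240 in SSM of the LN, 216 instead of 142 in rDC of the TDLN and 2 instead of 0 between MSM and SSM in the LN with PBS. Without the low-count filter 1448 passed in SSM of the LN, 9422 instead of 3416 in mDC of the TDLN, 11594 instead of 3639 between the nodes in mDC, 5357 instead of 1952 for the mDC node difference, 235 in rDC of the TDLN, 7427 instead of 2509 in rDC of the LN, 6354 instead of 3781 between the nodes in rDC and 1845 instead of 745 for the rDC node difference. The same setting moved the median of all genes by -0.28, 0.35 and -0.32 (log2) in those 3 mDC comparisons, by -0.30, -0.26 and 0.25 in the last 3 rDC ones, and by 0.11, 0.16 and -0.43 between mDC and rDC in the TDLN with cisplatin, the TDLN with PBS and the LN with PBS. The share of calls that were higher became 68.9% instead of 56.0% in mDC of the LN, 33.3% instead of 54.0% for the mDC node difference, 37.7% instead of 59.9% in rDC of the LN, 32.4% instead of 55.2% between the nodes in rDC and 73.3% instead of 49.3% for the rDC node difference. DESeq2's size factors in edgeR moved the median by -0.13 for the MSM node difference and by 0.14 between MSM and SSM in the LN with cisplatin. The 2 thinning draws past that limit called 1641 and 1667 in rDC of the LN. The replicate block gave 2476 instead of 3883, 1206, 2118 instead of 3321 and 2375 instead of 3649 in SSM of the TDLN, of the LN, between the nodes and for the node difference. Leaving out 1 library gave 1818 to 8810, 803 to 4441, 1400 to 6471 and 2170 to 7440 in the same order, and in rDC 82 to 613 in the TDLN, 1581 to 2043 in the LN, 2366 to 3182 between the nodes and 485 to 1784 for the node difference. Between MSM and SSM in the LN with PBS it gave 0 to 236.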

Other observations

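The deposited per-length values and the CPM order Notch4 differently in 2 MSM groups. The authors' per-length values, with decimals dropped, averaged 12.7 in MSM LN CIS and 5.67 in MSM TDLN PBS, while the CPM averaged 4.73 in MSM LN CIS and 16.4 in MSM TDLN PBS. Notch2 in MSM of the TDLN averaged 11.0 with CIS and 5.0 with PBS in these per-length values, against 40.4 and 39.5 CPM. Rbpj averaged 25.3 in MSM LN CIS and 17.0 in MSM TDLN PBS per length, against 23.4 and 25.2 CPM. The MSM results of these genes were tested on counts only. Per-length values and CPM came from the same libraries, and the cause was not tested.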
